A study of Homo sapiens with 38 samples.

Results

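The HOX genes encode homeodomain transcription factors and lie in 4 clusters in the human genome. The 39 protein-coding genes whose symbol is HOXA, HOXB, HOXC or HOXD followed by a number were taken from 58425 genes with a matched transcript, and the estimated reads and TPM values (levels per transcript length that sum to a fixed total in each library) of their transcripts were summed per gene. The rule used symbols only and no measured value, but it was set with earlier results of these data known. In GRCh38 coordinates the HOXA cluster held 11 genes at chr7:27092993-27200091 on the minus strand, the HOXB cluster 10 genes at chr17:48528526-48728750 on the minus strand, the HOXC cluster 9 genes at chr12:53938831-54056030 on the plus strand and the HOXD cluster 9 genes at chr2:176092721-176190907 on the plus strand.

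RNA-seq of purified nuclei and of cytoplasm was made from HCT116, a human colorectal cancer cell line, in 5 genotypes with 3 libraries each per fraction, which gave 30 libraries. Argonaute (AGO) proteins bind microRNAs (miRNAs) and guide them to target RNAs, and the study examined where they bind nuclear RNA and how their loss affects splicing. The groups were wild-type (WT) HCT116 at passages 27, 28 and 29, AGO1 knockout at passages 6, 7 and 8, AGO2 knockout at passages 8, 9 and 10, AGO1/2 double knockout at passages 9, 10 and 11, and AGO1/2/3 triple knockout at passages 11, 12 and 14. The knockout lines were made from the same HCT116 source with CRISPR, with 1 line per genotype, so that the libraries of a group are passages of that line, the p-values measure the spread between passages, and genotype, line and passage cannot be told apart.

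Nuclear libraries held 20431557 to 54097984 estimated reads and cytoplasmic libraries 39476205 to 79731793, and the WT libraries were the shallowest of each fraction. AGO1 RNA was lower in every line that lacks AGO1: its nuclear TPM was 9.34 to 12.6 in WT and 2.39 to 4.13 in the 9 libraries of these lines. AGO2 RNA was at 46.0 to 57.8 nuclear TPM in WT and remained at 24.5 to 41.2 in the 9 libraries of lines that lack AGO2, and AGO3 was at 13.7 to 16.1 in the triple knockout against 18.2 to 23.3 in WT and 13.4 to 16.2 in the other knockouts, so that AGO3 RNA does not check the triple knockout label. Of the epithelial markers, EPCAM was at 90.1 to 102 nuclear TPM in WT. The leukocyte marker PTPRC and the fibroblast marker COL1A2 were at or near 0 in every library.

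In vertebrates the position of a HOX gene in its cluster follows the order in which the genes are used along the body axis, with low numbers anterior and high numbers posterior, and adult tissues and cell lines keep a characteristic HOX pattern. HOX proteins bind DNA together with TALE cofactors of the PBX, MEIS and PKNOX families, Polycomb proteins keep the clusters silent, and Trithorax and KMT2 complexes keep them active. The clusters also encode miRNAs. The miR-196 genes lie beside the paralog group 9 and 10 genes of 3 clusters, the miR-10 genes beside paralog group 4, and both families are known to pair with HOX mRNAs, for which they need AGO proteins.

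The mature miRNAs of the clusters are shown because their seeds (bases 2 to 8, in capitals) define the sites searched in the HOX mRNAs. The sequences are from RefSeq on GRCh38.p14. The 2 miR-196a genes give 1 mature sequence, read at chr17:48632532-48632553 (minus strand, MIR196A1) and at chr12:53991762-53991783 (plus strand, MIR196A2), while miR-196b is at chr7:27169528-27169549 and miR-10a at chr17:48579904-48579926, both on the minus strand. miR-196a and miR-196b share their seed, and miR-10a has another.
hsa-miR-196a-5p: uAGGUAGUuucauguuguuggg
hsa-miR-196b-5p: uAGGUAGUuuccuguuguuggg
hsa-miR-10a-5p: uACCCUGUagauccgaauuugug

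Of the 39 HOX 3′ UTRs, read from the reference transcript of each gene, 8 held the miR-196 seed match ACTACCT on the sense strand (20.5%), against 7.09% of all 18780 reference 3′ UTRs and 5.82% of the 13298 UTRs in the length range of the HOX UTRs. They were those of HOXA5, HOXA7, HOXA9, HOXB1, HOXB6, HOXB7, HOXB13 and HOXC8. HOXA7 held 4 matches, HOXC8 3 and HOXA9 2, and the matches of HOXB1 and HOXB13 overlapped the longer match ACTACCTC of the let-7 family. The miR-10 seed match ACAGGGT was in 3 HOX UTRs (7.7%), among them those of HOXA3 and HOXB3, against 12.74% of all UTRs. HOXB8 held no seed match, but a window at chr17:48612770-48612791 (minus strand, base 411 of its 856-base 3′ UTR) paired with miR-196a at all 22 bases, 21 of them as Watson-Crick pairs and 1 as a G:U pair inside the seed. No other HOX UTR held a window with 20 or more paired bases, and 263 of 18696 UTRs did (1.41%). The HOXB8 site is printed with those of HOXB7 (chr17:48607614-48607635, minus strand), HOXA7 (chr7:27154430-27154451, minus strand) and HOXC8 (chr12:54011495-54011516, plus strand), since these genes carry results below, and the capitals mark the bases across from the seed.
HOXB8: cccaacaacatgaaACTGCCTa
HOXB7: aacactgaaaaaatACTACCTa
HOXA7: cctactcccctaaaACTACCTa
HOXC8: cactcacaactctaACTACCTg
A match describes the letters of the UTR, and whether these sites were bound in the cells was not tested here.

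HCT116 cells expressed HOXB and HOXA genes most, and the HOXD cluster was nearly silent. A mean level of at least 1 TPM in at least 1 of the 10 groups was reached by 23 of 39 members: 9 of 11 in HOXA, 8 of 10 in HOXB, 5 of 9 in HOXC and 1 of 9 in HOXD. The 10 members HOXA13, HOXB1, HOXC11, HOXC12, HOXD1 and HOXD9 to HOXD13 stayed below 0.2 TPM in every group. In WT nuclei the summed level of the HOXB genes was 102 ± 11.7 TPM (SD, n = 3), that of HOXA 56.4 ± 11.9, that of HOXC 9.95 ± 1.38 and that of HOXD 3.45 ± 0.862 TPM. In WT cytoplasm the sum was 72.5 ± 13.6 TPM for HOXA and 62.3 ± 5.95 for HOXB, and the libraries of these sums overlapped.

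In the order of WT nuclear levels, HOXA9 stood at 30.7 TPM, HOXB6 at 25.5 and HOXB3 at 25.0, and the libraries of neighbours among these 3 overlapped. HOXB7 followed at 16.5 TPM without overlap with HOXB3, and then came HOXB8 at 10.5, HOXB5 at 9.78, HOXB9 at 7.82, HOXA10 at 6.32 and HOXB4 at 5.82, each of which overlapped its neighbour. In WT cytoplasm HOXA9 stood alone at 42.7 TPM and HOXB7 alone at 22.9 TPM, and HOXB8 at 13.7, HOXB9 at 9.64 and HOXA7 at 8.73 TPM overlapped in turn. HOXB6 was at 5.67 TPM and HOXB3 at 3.50 TPM there. The HOXB3 level is uncertain as a level of the HOXB3 protein-coding message, since 1 transcript, HOXB3-213, which starts near HOXB6 and spans the miR-10a gene, held 15.1 of its 25.0 nuclear TPM. Exonic bases on the same strand were shared by HOXB3 with HOXB4 (44 bp) and with HOXB6 (433 bp), by HOXC6 with HOXC4 (484 bp) and with HOXC9 (73 bp), and by HOXD10 with HOXD11 (452 bp), so that reads of these 8 members could be split between neighbours.

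**Figure D1:**
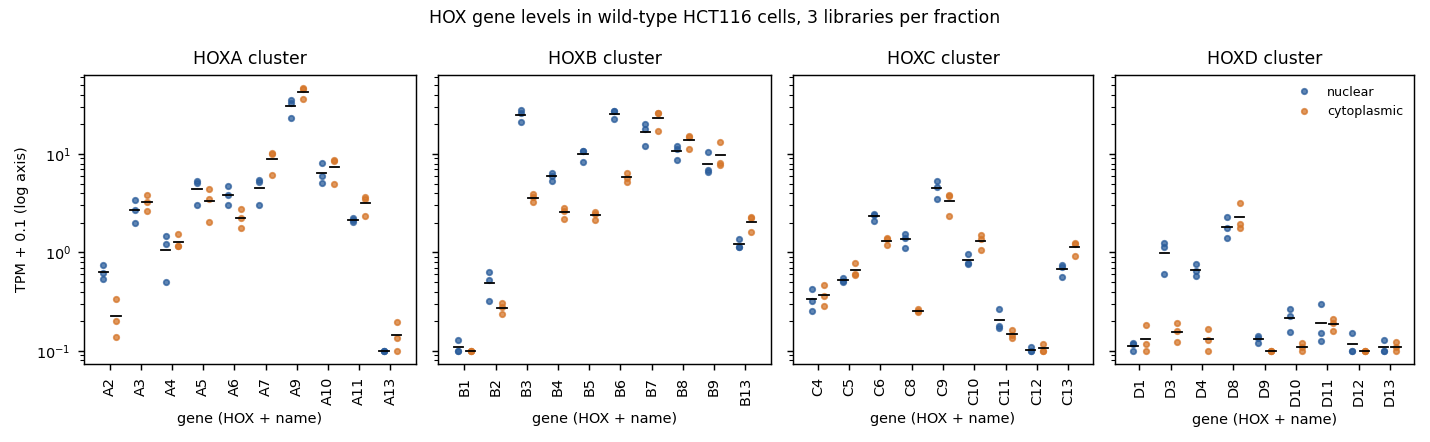
Level of the HOX genes reported by name in wild-type nuclear and cytoplasmic RNA as TPM + 0.1 on a log axis, with the genes in cluster order, 1 point per library and a line at the mean. HOXA9 had the highest mean in both fractions, and all HOXD genes except HOXD8 had means below 1 TPM.

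For the differences between genotypes, estimated reads were compared as CPM (shares of the library after TMM scaling, without regard to length) with edgeR's quasi-likelihood test, and a gene was called at an adjusted p (Benjamini-Hochberg over all genes tested) of at most 0.05. Of the 39 members, 30 passed the filter on low counts in nuclear RNA and 28 in cytoplasmic RNA. HOXA13, HOXB1, HOXC12, HOXD1 and HOXD9 to HOXD13 passed in neither fraction, and HOXD3 and HOXD4 in nuclear RNA only. The 4 knockouts of a fraction were compared with the same 3 WT libraries, so that counts of these comparisons are not independent of each other. WT passage 29 stood apart from passages 27 and 28 for HOXA7, HOXB9 and HOXD8 in both fractions. Without its libraries the comparisons of AGO1, of AGO2, of AGO1/2 and of AGO1/2/3 had 12, 14, 21 and 17 members higher and 0, 1, 2 and 3 lower in nuclear RNA, and 7, 8, 17 and 15 higher and 1, 4, 3 and 3 lower in cytoplasmic RNA.

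Most measured HOX genes were higher in the AGO1/2 and AGO1/2/3 knockouts than in WT, and the HOXD genes were lower. In nuclear RNA of the AGO1/2 knockout 21 members were higher and 3 lower, where 67.6% of all 18919 genes tested were called (32.9% higher and 34.7% lower). In the AGO1/2/3 knockout 19 members were higher and 3 lower, where 58.6% of all genes were called (29.1% higher and 29.5% lower). The median log2 fold change of the tested members was 0.82 in the AGO1/2 knockout and 0.56 in the AGO1/2/3 knockout, beside -0.06 and -0.03 over all genes.

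The single knockouts had fewer calls, all of them higher in nuclear RNA. In the AGO1 knockout 10 members were higher and none lower (29.9% of all genes were called, 14.3% higher and 15.6% lower), and in the AGO2 knockout 12 were higher and none lower (40.2% called, 20.2% higher and 19.9% lower). The median log2 fold change of the members was 0.33 in both, beside -0.03 and -0.02 over all genes.

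In cytoplasmic RNA 18 members were higher and 2 lower in the AGO1/2 knockout, where 49.2% of 17605 genes were called (23.9% higher and 25.4% lower). In the AGO1/2/3 knockout 16 were higher and 2 lower (38.7% called, 18.6% higher and 20.0% lower). The AGO1 knockout had 9 members higher and none lower (12.4% called, 4.28% higher and 8.13% lower), and the AGO2 knockout 6 higher and 2 lower (16.1% called, 7.07% higher and 9.0% lower). The 3 libraries of a knockout lay wholly above the 3 WT libraries for 21 nuclear members in the AGO1/2 knockout and 18 in the AGO1/2/3 knockout, and wholly below for 4 and 3, where 66.5% and 61.0% of all genes did not overlap in either direction. In the nuclear AGO1 and AGO2 comparisons 14 and 13 members lay wholly above WT and 1 in each wholly below (41.8% and 48.4% of all genes did not overlap). In cytoplasm 12, 10, 18 and 18 members lay wholly above WT in the single knockouts of AGO1 and AGO2 and in the AGO1/2 and AGO1/2/3 knockouts, in that order, and 1, 2, 2 and 2 wholly below, where 29.7%, 31.8%, 51.0% and 46.5% of all genes did not overlap.

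**Figure D2:**
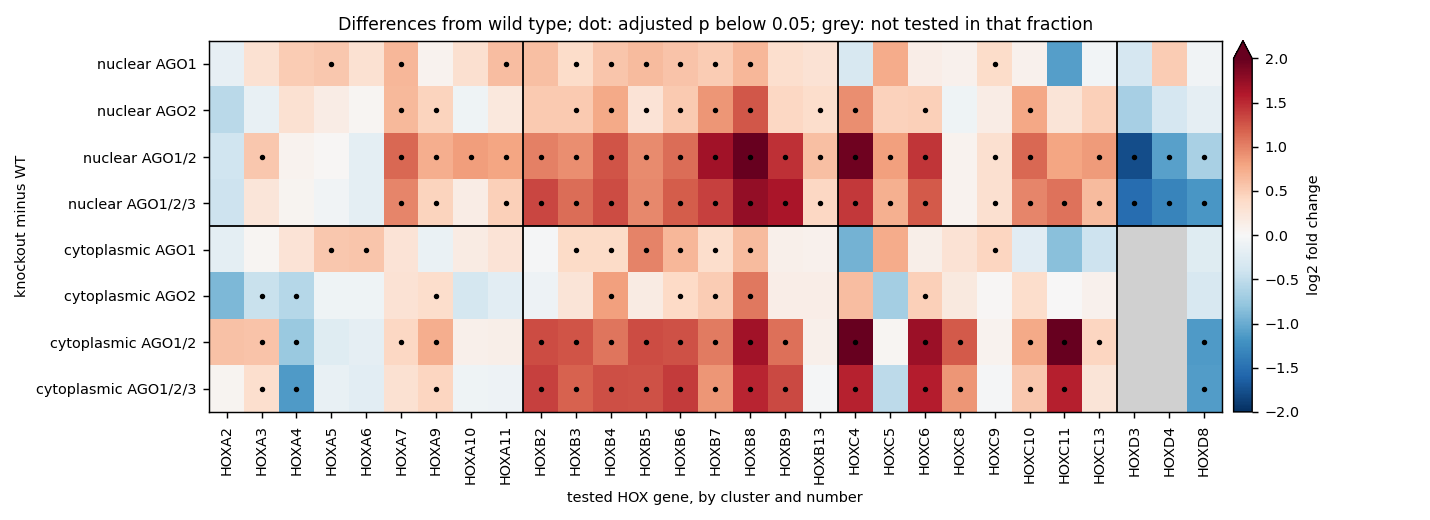
Heat map of the log2 fold change in CPM against wild type for the tested HOX genes reported by name (columns, in cluster order) in the 4 knockouts and both fractions (rows), with red for higher, blue for lower, grey for not tested and a dot for an adjusted p below 0.05. Dots fill the HOXB columns of the AGO1/2 and AGO1/2/3 rows except cytoplasmic HOXB13, and the HOXD columns of these rows are blue where tested.

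The calls depended on the scale, in single and in multiple knockouts. TPM is a share of all RNA by length, and transcripts under 300 nt held 51.3 to 57.2% of the TPM of WT nuclei against 35.2 to 40.8% in AGO1/2 knockout nuclei. With limma on log2(TPM + 1), the share of higher genes among all calls fell from 47.8 to 5.9% in the nuclear AGO1 comparison, from 50.3 to 9.7% for AGO2, from 48.7 to 42.7% for AGO1/2 and from 49.7 to 26.5% for AGO1/2/3, and in cytoplasm from 34.5 to 7.3%, 44 to 6.0%, 48.5 to 13.4% and 48.2 to 17.7%. The median of all genes moved by -0.13, -0.15, -0.01 and -0.12 in the nuclear comparisons and by -0.07, -0.13, -0.19 and -0.12 in the cytoplasmic ones. On that scale 20 nuclear members were higher and 3 lower in the AGO1/2 knockout, and 12 higher and 4 lower in the AGO1/2/3 knockout. The cytoplasmic members were 14 higher and 3 lower in the former, and 10 higher and 4 lower in the latter. Across TMM, RLE, DESeq2, TPM and protein-coding transcripts only, 15 nuclear members were higher in the AGO1/2 knockout and 12 in the AGO1/2/3 knockout under every scaling in which they were tested, and 3 were lower in both. The cytoplasmic counts were 14 and 10 higher, and 2 lower in each. For the single knockouts these counts were 5 (AGO1) and 3 (AGO2) in nuclear RNA and 3 and 3 in cytoplasmic RNA, with 2 cytoplasmic members lower in the AGO2 knockout.

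The HOXB genes rose together. In nuclear RNA all 9 tested HOXB genes were higher in both the AGO1/2 and the AGO1/2/3 knockout, with median log2 fold changes of 1.11 and 1.30, and in cytoplasmic RNA 8 of 9 were higher in each, with medians of 1.27 and 1.29. Over all genes 32.9% and 29.1% were higher in these nuclear comparisons, and 23.9% and 18.6% in the cytoplasmic ones. Higher HOXB genes numbered 6 of 9 in the nuclear AGO1 comparison and 7 of 9 in the nuclear AGO2 comparison, where 14.3% and 20.2% of all genes were higher. The summed nuclear level of the cluster was 107, 111 and 89.2 TPM in the WT libraries, 235, 250.1 and 228 TPM in the AGO1/2 knockout and 212, 209 and 204 TPM in the AGO1/2/3 knockout. The groups did not overlap.

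HOXB8, a mid-cluster gene and the best known target of miR-196, lies at chr17:48611377-48615292. Its nuclear CPM was 16.8, 16.6 and 14.4 in WT, 26.0, 25.6 and 24.7 in the AGO1 knockout, 38.6, 38.0 and 36.7 in the AGO2 knockout, 66.2, 69.7 and 59.1 in the AGO1/2 knockout and 50.9, 56.9 and 54.3 in the AGO1/2/3 knockout. No 2 of these 5 groups overlapped, and the double knockout was the highest. The nuclear log2 fold changes were 0.67 ± 0.078 (SE; adjusted p = 3.5e-05), 1.24 ± 0.0773 (4.8e-08), 2.02 ± 0.0774 (2.9e-11) and 1.76 ± 0.0773 (1.6e-10) in the edgeR test, in the same order of genotypes. Among tested HOX genes it had the largest nuclear fold change in the AGO2, AGO1/2 and AGO1/2/3 comparisons.

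The cytoplasmic CPM of HOXB8 was 24.4, 23.7 and 20.7 in WT, 37.4, 35.1 and 34.4 in the AGO1 knockout, 51.6, 46.2 and 45.0 in the AGO2 knockout, 76.4, 77.5 and 66.2 in the AGO1/2 knockout and 63.9, 71.2 and 63.3 in the AGO1/2/3 knockout. All 4 knockouts lay above WT, and the AGO1/2 and AGO1/2/3 libraries overlapped each other. The log2 fold changes were 0.64, 1.05, 1.68 and 1.53, with adjusted p of 2.7e-04, 1.6e-06, 2.8e-09 and 9.3e-09 in the edgeR test. Transcript HOXB8-201, which carries the site printed above, held 86.5% of the HOXB8 reads in WT nuclei.

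HOXB7 (chr17:48607232-48633572) carries 1 miR-196 seed match. Its nuclear CPM was 21.0, 20.4 and 15.0 in WT, 27.0, 26.7 and 26.6 in the AGO1 knockout, 35.1, 34.9 and 34.4 in the AGO2 knockout, 59.0, 64.6 and 56.6 in the AGO1/2 knockout and 45.0, 53.0 and 47.4 in the AGO1/2/3 knockout. The order of genotypes was that of HOXB8, with no overlap. The nuclear log2 fold changes were 0.51, 0.88, 1.67 and 1.36 (edgeR adjusted p = 0.00191, 1.3e-05, 2.4e-09 and 2.9e-08). Cytoplasmic CPM was 31.9, 34.4 and 25.6 in WT, 61.5, 70.3 and 56.3 in the AGO1/2 knockout and 57.9, 58.3 and 53.1 in the AGO1/2/3 knockout, with log2 fold changes of 1.04 and 0.88. In cytoplasm the AGO1 difference of 0.35 (adjusted p = 0.0363, edgeR) was lost without WT passage 29 (0.24, adjusted p = 0.111).

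HOXB9, at chr17:48621156-48626358 and the most 5′ gene of the main HOXB block, depended on 1 WT passage. Its nuclear CPM was 19.0, 19.8 and 34.0 in WT at passages 27, 28 and 29, 69.2, 63.7 and 67.4 in the AGO1/2 knockout and 76.5, 70.9 and 76.8 in the AGO1/2/3 knockout. Passage 29 stood apart from the other WT passages and below every double and triple knockout library. The same was seen in cytoplasm, where WT CPM was 25.2, 25.0 and 47.0. The nuclear log2 fold changes were 1.46 and 1.63 (edgeR adjusted p = 9.6e-07 and 4.9e-07), and the cytoplasmic ones 1.10 and 1.32. In the single knockouts the nuclear differences of 0.34 (AGO1) and 0.41 (AGO2) were not called (adjusted p = 0.125 and 0.0518), while without WT passage 29 they were 0.67 and 0.75 and were called (adjusted p = 6.9e-05 and 1.1e-05), as were the cytoplasmic differences of 0.47 and 0.51 (adjusted p = 0.0192 and 0.00857).

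HOXB6 (chr17:48595751-48604992), which carries 1 miR-196 seed match, had a nuclear CPM of 33.6, 32.2 and 29.4 in WT, 45.8, 47.1 and 49.4 in the AGO1 knockout, 44.6, 45.6 and 46.6 in the AGO2 knockout, 65.4, 68.0 and 72.8 in the AGO1/2 knockout and 73.6, 71.6 and 75.2 in the AGO1/2/3 knockout. WT was the lowest group, the single knockouts overlapped each other, and so did the double and the triple knockout. Nuclear log2 fold changes were 0.58, 0.52, 1.11 and 1.21 (edgeR adjusted p = 1.7e-05, 1.8e-05, 1.1e-09 and 8.3e-10). In cytoplasm CPM was 10.4, 11.2 and 11.1 in WT, 25.6, 25.5 and 28.0 in the AGO1/2 knockout and 27.8, 28.3 and 30.2 in the AGO1/2/3 knockout, with log2 fold changes of 1.27 and 1.40.

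HOXB5 (chr17:48591257-48593779) was higher in the cytoplasm of the AGO1 knockout and not called in that of the AGO2 knockout. Its cytoplasmic CPM was 5.80, 6.15 and 5.62 in WT, 9.65, 13.2 and 12.3 in the AGO1 knockout, 6.13, 6.36 and 7.24 in the AGO2 knockout, 13.7, 13.8 and 15.7 in the AGO1/2 knockout and 12.3, 14.4 and 15.6 in the AGO1/2/3 knockout. The AGO2 knockout overlapped WT, and every other knockout library lay above both. The cytoplasmic log2 fold changes were 1.0 (AGO1, adjusted p = 1.2e-04), 0.17 (AGO2, adjusted p = 0.413), 1.30 (adjusted p = 1.0e-06) and 1.27 (adjusted p = 2.1e-06) in the edgeR test. In nuclei its CPM was 24.2, 24.3 and 20.7 in WT, 42.0, 42.6 and 48.1 in the AGO1/2 knockout and 46.4, 45.6 and 43.2 in the AGO1/2/3 knockout, with log2 fold changes of 0.63, 0.27, 0.94 and 0.97 for the 4 knockouts, all called.

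HOXB4 (chr17:48575507-48578350), known for its role in blood stem cell expansion, was higher in all 8 comparisons. Its nuclear CPM was 26.0, 28.1 and 25.8 in WT, 40.6, 37.6 and 38.7 in the AGO1 knockout, 47.0, 42.9 and 44.7 in the AGO2 knockout, 61.1, 63.0 and 66.7 in the AGO1/2 knockout and 63.8, 66.1 and 67.1 in the AGO1/2/3 knockout. Only the double and the triple knockout overlapped. The log2 fold changes were 0.55 (adjusted p = 2.3e-05), 0.75 (6.2e-07), 1.26 (2.7e-10) and 1.30 (2.8e-10) in the edgeR test. Cytoplasmic CPM was 12.1, 13.1 and 11.1 in WT, 25.2, 25.2 and 25.7 in the AGO1/2 knockout and 30.2, 31.0 and 27.3 in the AGO1/2/3 knockout, with log2 fold changes of 1.07 and 1.29.

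HOXB3 (chr17:48548870-48604912), which carries 1 miR-10 seed match, was at 26.2, 29.4 and 24.6 nuclear CPM in WT, at 48.8, 47.6 and 56.7 in the AGO1/2 knockout and at 59.7, 58.5 and 55.6 in the AGO1/2/3 knockout. The WT libraries lay below all others. The nuclear log2 fold changes were 0.37, 0.52, 0.93 and 1.11 (edgeR adjusted p = 0.00338, 1.6e-04, 8.9e-08 and 2.2e-08). In cytoplasm, where CPM was 5.38, 5.16 and 4.93 in WT, 12.0, 12.7 and 12.4 in the AGO1/2 knockout and 10.4, 12.7 and 12.0 in the AGO1/2/3 knockout, the log2 fold changes were 1.26 and 1.18. The AGO1 difference in cytoplasm was called at 0.39 (adjusted p = 0.016, edgeR) and was -0.001 on the log2(TPM + 1) scale.

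The remaining HOXB genes lay at the ends of the cluster. HOXB2 was at 0.67, 0.38 and 0.94 nuclear CPM in WT and at 1.57, 1.21 and 1.19 in the AGO1/2 knockout, and was higher in both multiple knockouts in both fractions (log2 fold changes of 1.0 to 1.36). HOXB13, which is known for its expression in prostate and lower gut and lies apart from the others, was higher in nuclei by 0.36 (AGO2), 0.59 (AGO1/2) and 0.41 (AGO1/2/3), and its cytoplasmic differences of -0.02 to 0.13 were not called.

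**Figure D3:**
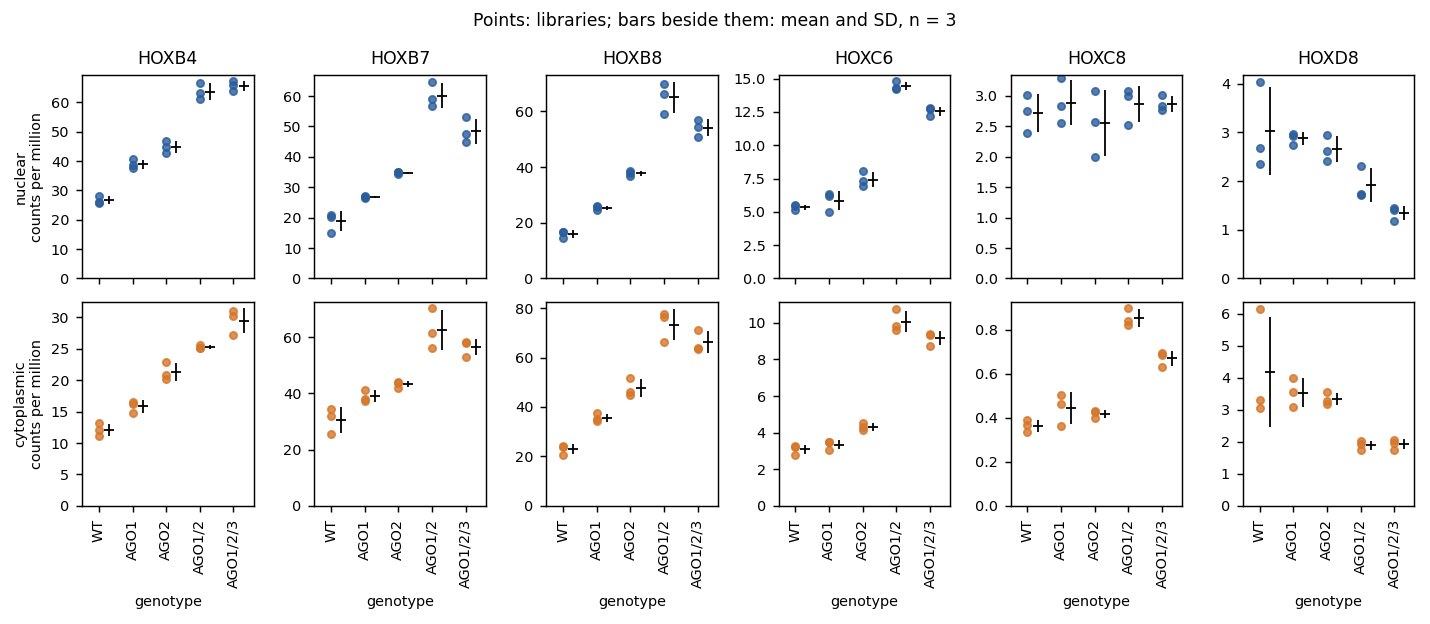
CPM of HOXB4, HOXB7, HOXB8, HOXC6, HOXC8 and HOXD8 in every library, by genotype and fraction, with a bar beside the points for the mean and SD (n = 3). HOXB8 separated all 5 nuclear groups, HOXC8 differed in cytoplasm only and HOXD8 fell in the double and triple knockouts.

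The HOXC genes were also mostly higher, from low levels. In nuclear RNA 6 of 8 tested genes were higher in the AGO1/2 knockout and 7 of 8 in the AGO1/2/3 knockout, and in cytoplasm 6 and 5 of 8. Over all genes 32.9% and 29.1% were higher in nuclei and 23.9% and 18.6% in cytoplasm. HOXC6 (chr12:53990624-54030823) was at 5.49, 5.44 and 5.12 nuclear CPM in WT, 5.01, 6.20 and 6.33 in the AGO1 knockout, 7.31, 6.91 and 8.03 in the AGO2 knockout, 14.2, 14.8 and 14.3 in the AGO1/2 knockout and 12.2, 12.8 and 12.7 in the AGO1/2/3 knockout. The AGO1 knockout overlapped WT and the others did not. In nuclei the log2 fold changes were 0.13 (adjusted p = 0.357), 0.47 (0.00132), 1.43 (4.6e-09) and 1.23 (3.8e-08) in the edgeR test. Cytoplasmic CPM was 3.21, 3.26 and 2.80 in WT, 9.85, 10.7 and 9.62 in the AGO1/2 knockout and 9.40, 8.74 and 9.35 in the AGO1/2/3 knockout, and the log2 fold changes were 1.70 and 1.57.

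HOXC8 (chr12:54008985-54012769), with 3 miR-196 seed matches, differed in cytoplasm and not detectably in nuclei. Its cytoplasmic CPM was 0.365, 0.337 and 0.390 in WT, 0.899, 0.823 and 0.839 in the AGO1/2 knockout and 0.632, 0.694 and 0.688 in the AGO1/2/3 knockout. The 3 groups did not overlap, but the WT values rest on 15, 15 and 17 estimated reads. The log2 fold changes were 1.23 ± 0.178 (adjusted p = 5.2e-05) and 0.88 ± 0.180 (adjusted p = 0.00133) in the edgeR test. Nuclear CPM was 2.75, 3.01 and 2.38 in WT, 3.07, 2.99 and 2.52 in the AGO1/2 knockout and 2.76, 3.01 and 2.83 in the AGO1/2/3 knockout. These nuclear groups overlapped, with log2 fold changes of 0.07 and 0.08 (adjusted p = 0.709 and 0.711).

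HOXC10 (chr12:53985065-53990279) was at 1.44, 1.25 and 1.44 nuclear CPM in WT, 1.93 to 2.77 in the AGO2 knockout, 3.02, 2.85 and 3.34 in the AGO1/2 knockout and 2.93, 3.01 and 2.19 in the AGO1/2/3 knockout. WT overlapped only the AGO1 knockout. In nuclei the log2 fold changes were 0.09 (adjusted p = 0.784), 0.78 (0.00542), 1.15 (6.9e-05) and 0.97 (4.8e-04) in the edgeR test, and the cytoplasmic ones of the double and triple knockouts were 0.75 and 0.53. HOXC4 rose by 1.94 and 1.41 in nuclei and by 1.99 and 1.54 in cytoplasm on the log2 scale, from 0.282, 0.460 and 0.449 nuclear CPM in WT, and it shares exonic bases with HOXC6. HOXC11 rose in cytoplasm by 2.02 and 1.56, from only 7, 6 and 4 estimated reads in the WT libraries.

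HOXD genes were lower. All 3 tested HOXD genes fell in nuclear RNA of the AGO1/2 and AGO1/2/3 knockouts, where 34.7% and 29.5% of all genes were lower. HOXD8 (chr2:176129694-176132695), the only HOXD gene above 1 TPM, was at 2.36, 2.68 and 4.04 nuclear CPM in WT at passages 27, 28 and 29, at 1.73, 1.71 and 2.32 in the AGO1/2 knockout and at 1.45, 1.18 and 1.40 in the AGO1/2/3 knockout. Every double and triple knockout library lay below every WT library, and passage 29 stood above the other WT passages. In nuclei the log2 fold changes were -0.65 (adjusted p = 0.0083) and -1.16 (adjusted p = 1.6e-04) in the edgeR test, and without passage 29 they were -0.36 (adjusted p = 0.0824, no longer called) and -0.88. Its cytoplasmic CPM was 3.31, 3.05 and 6.15 in WT, 1.93, 1.74 and 2.02 in the AGO1/2 knockout and 2.04, 1.76 and 1.97 in the AGO1/2/3 knockout, and the log2 fold changes of -1.14 and -1.12 became -0.75 and -0.73 without passage 29 and were still called. HOXD3 fell by 1.77 and 1.53 and HOXD4 by 1.08 and 1.32 on the log2 scale in nuclei, from 15, 30 and 24 and from 24, 18 and 26 estimated reads in the WT libraries, and HOXD3, HOXD4 and HOXD8 did not overlap WT in either multiple knockout.

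The HOXA genes were the most mixed. In nuclear RNA 6 of 10 tested genes were higher in the AGO1/2 knockout and 3 of 10 in the AGO1/2/3 knockout, with none lower, and in cytoplasm 4 were higher and 1 lower in the former and 3 higher and 1 lower in the latter. Over all genes 32.9% and 29.1% were higher in these nuclear comparisons, and 23.9% and 18.6% in the cytoplasmic ones. The 3 of 10 in AGO1/2/3 knockout nuclei thus lay near the share of all genes. HOXA7 (chr7:27153716-27157936), with 4 miR-196 seed matches, was at 12.0, 11.3 and 7.32 nuclear CPM in WT at passages 27, 28 and 29, at 23.1, 23.2 and 21.8 in the AGO1/2 knockout and at 18.9, 19.1 and 22.3 in the AGO1/2/3 knockout. Both knockouts lay above WT, in which passage 29 was low. In nuclei the log2 fold changes were 0.67, 0.65, 1.15 and 0.97 (edgeR adjusted p = 0.00228, 0.00168, 2.6e-06 and 2.1e-05). In cytoplasm its CPM was 24.2, 24.1 and 16.2 in WT, 30.1, 28.5 and 27.6 in the AGO1/2 knockout and 26.0, 27.9 and 25.4 in the AGO1/2/3 knockout, and the log2 fold changes were 0.42 (adjusted p = 0.00811) and 0.30 (adjusted p = 0.0566, not called), and 0.25 and 0.13 without passage 29.

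Among the other HOXA genes, HOXA9, a known leukemia oncogene, was the most abundant. It was at 58.3, 57.3 and 41.1 nuclear CPM in WT, 86.8, 89.1 and 84.7 in the AGO1/2 knockout and 68.1, 73.7 and 71.2 in the AGO1/2/3 knockout, with log2 fold changes of 0.73 and 0.44 (edgeR adjusted p = 7.4e-06 and 0.00106). HOXA4 was the HOXA gene called lower in the double and triple knockouts, and in the AGO2 knockout HOXA3 (-0.45) and HOXA4 (-0.57) were lower in cytoplasm. The cytoplasmic CPM of HOXA4 was 1.95, 1.82 and 1.72 in WT, 1.14, 1.09 and 1.04 in the AGO1/2 knockout and 0.713, 0.970 and 0.809 in the AGO1/2/3 knockout, and it fell by 0.75 and 1.14 on the log2 scale there. Its nuclear differences of 0.07 and 0.06 were not called. HOXA5, a paralog group 5 gene like HOXB5, was called higher in the AGO1 knockout (0.54 in nuclei, 0.53 in cytoplasm) and in no other comparison with WT.

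**Figure D4:**
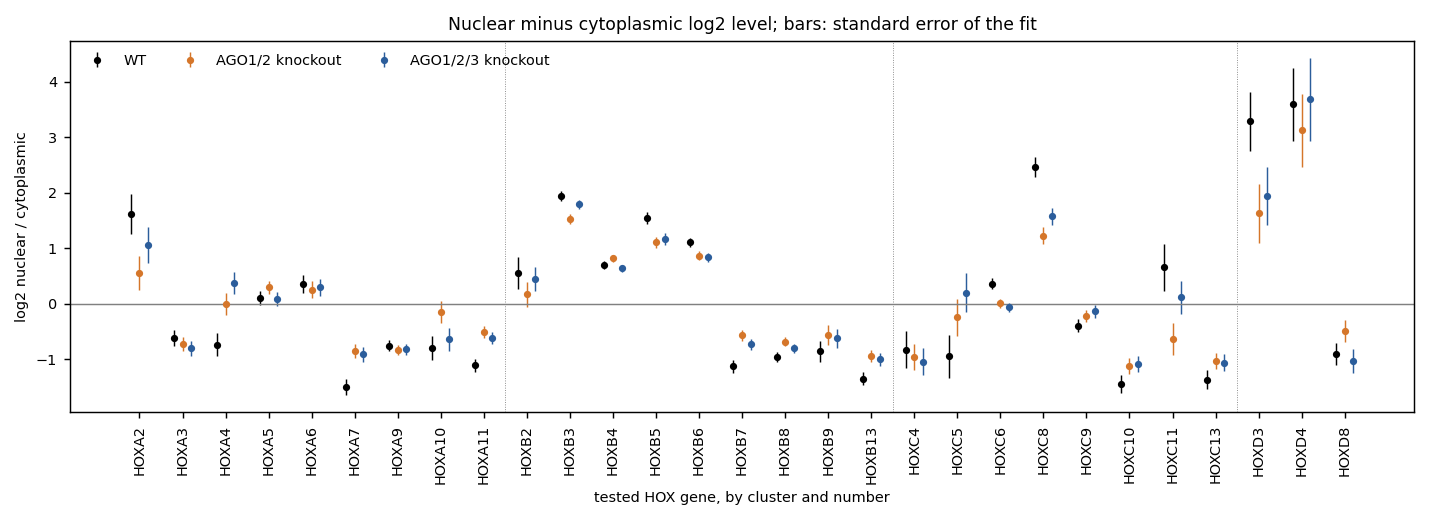
Log2 ratio of nuclear to cytoplasmic CPM of the tested HOX genes reported by name in wild type and in the AGO1/2 and AGO1/2/3 knockouts, in cluster order, with bars for the standard error of the fit. HOXB3 to HOXB6 lay above 0 and HOXB7 to HOXB13 below 0 in wild type.

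HOX transcripts were split between the fractions by gene. In WT 9 members were higher in nuclear and 17 higher in cytoplasmic CPM, where 76.8% of all 20104 genes were called (39.6% higher in nuclei and 37.3% lower). Within the HOXB cluster the split followed gene order among the 8 genes called of 9 tested, and HOXB2 was not called. HOXB3 (log2 ratio of nuclear to cytoplasmic CPM 1.94), HOXB4 (0.70), HOXB5 (1.54) and HOXB6 (1.11) were higher in nuclei, and HOXB7 (-1.13), HOXB8 (-0.96), HOXB9 (-0.86) and HOXB13 (-1.35) in cytoplasm, with edgeR adjusted p of at most 1.7e-04. HOXB3 and HOXB6 share exonic bases, so that reads could be split between them. HOXD4 (3.59), HOXD3 (3.29), HOXC8 (2.46) and HOXA2 (1.62) had the other high nuclear ratios, and HOXA7 (-1.50), HOXC10 (-1.45) and HOXC13 (-1.37) the lowest. In the AGO1 knockout 10 members were higher in nuclei and 16 lower, where 74.5% of all genes were called (40.0% higher and 34.5% lower). In the AGO2 knockout these were 13 and 14 (73.4% called, 39.8% higher and 33.6% lower), in the AGO1/2 knockout 8 and 13 (68.6% called, 36.9% higher and 31.6% lower) and in the AGO1/2/3 knockout 8 and 14 (70.2% called, 36.1% higher and 34.1% lower).

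These directions depended in part on the scale. Under every scaling in which they were tested, the 9 members HOXA2, HOXB3, HOXB4, HOXB5, HOXB6, HOXC6, HOXC8, HOXD3 and HOXD4 were called higher in WT nuclei, and the 8 members HOXA7, HOXA9, HOXA11, HOXB7, HOXB8, HOXB13, HOXC10 and HOXC13 lower. HOXB9 was not called lower under every scaling. HOXC9 changed sign (-0.40 in CPM, 0.36 on the log2(TPM + 1) scale). The split over members was 13 higher and 8 lower in WT with TPM, and 12 and 8 with protein-coding transcripts only.

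The difference between the fractions changed in the multiple knockouts for some members. The test of the interaction (the nuclear minus the cytoplasmic knockout difference) called 10 members in the AGO1/2 knockout, 5 in each direction, where 36.5% of all genes were called (19.6% above and 17.0% below 0). In the AGO1/2/3 knockout it called 5 members, 3 above and 2 below 0 (22.7% called, 11.7% above and 11.1% below). The members called were 33.3% and 16.7% of the 30 tested, below the shares of all genes. In the AGO1 and AGO2 knockouts edgeR and DESeq2 called none, where 0.662% (0.184% above and 0.478% below 0) and 5.76% (2.63% and 3.13%) of all genes were called by edgeR, and 3 and 5 members had an unadjusted p under 0.05. HOXC8 had the lowest called interaction in the AGO1/2/3 comparison (-0.89 ± 0.241, adjusted p = 0.00903) and lay at -1.23 (adjusted p = 2.3e-04) in the AGO1/2 comparison, its rise being cytoplasmic. HOXA7 (0.65 and 0.59), HOXA11 (0.61 and 0.49) and HOXA4 (0.73 and 1.11) differed the other way in both.

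With the passage number as a block, which pairs the fractions of a passage, 1 of 30 members was called in the AGO1 knockout (HOXA7), 6 in the AGO2 knockout, 13 in the AGO1/2 knockout and 10 in the AGO1/2/3 knockout. The same fit called 1261, 3623, 9329 and 7011 of all 20104 genes, in that order. In the AGO2 knockout the 6 members were HOXA4, HOXA7, HOXA11, HOXB7, HOXB8 and HOXB9, all above 0. On the log2(TPM + 1) scale the AGO1/2 interactions of members were 14 above and 2 below 0, where 7316 and 3701 of all 20104 genes were. With protein-coding transcripts only 0 members were above and 7 below, where 2283 and 2355 of 13571 genes were. No member was called the same way under every scaling in that knockout. HOXA4 was the 1 member called under every scaling in the AGO1/2/3 knockout.

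Members with and members without a miR-196 seed match in the 3′ UTR were both mostly higher, and the difference between them was not tested. In nuclear RNA of the AGO1/2 knockout 5 of 7 tested members with a match were higher and none lower, with a median log2 fold change of 0.73, and of the 23 without a match 16 were higher and 3 lower, with a median of 0.82. Over all genes 32.9% were higher and 34.7% lower in that comparison, with a median of -0.06. In cytoplasm the medians were 0.73 with and 0.75 without a match in the AGO1/2 knockout, and 0.42 and 0.49 in the AGO1/2/3 knockout. In the single knockouts the medians were 0.51 with and 0.32 without a match (AGO1, nuclei), and 0.45 and 0.27 (AGO2, nuclei). HOXB8, which has the site paired along its whole length but no exact seed match, counts among those without.

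Of the 4 HOX genes listed as known miR-196 targets, HOXA7 and HOXB8 were higher in all 4 nuclear comparisons, HOXC8 was called in none of them, and HOXD8 was lower in the AGO1/2 and AGO1/2/3 knockouts. Of those listed for miR-10, HOXA3 was higher in both fractions of the AGO1/2 knockout and HOXD10 was not tested. HOXB3, with a miR-10 match, was higher in all 4 nuclear comparisons. Transcript HOXB7-203, which spans the miR-196a-1 gene, was at 4.39, 8.28 and 3.60 nuclear TPM in WT, 13.1, 15.0 and 0 in the AGO1/2 knockout and 9.17, 9.08 and 8.38 in the AGO1/2/3 knockout. HOXB3-213, which spans the miR-10a gene, was at 16.0, 16.6 and 12.5 nuclear TPM in WT, 24.2, 29.6 and 30.1 in the AGO1/2 knockout and 28.2, 28.9 and 26.7 in the AGO1/2/3 knockout. The double and triple knockout libraries lay above WT for HOXB3-213, while for HOXB7-203 the triple knockout lay above WT and the double knockout, with 1 library at 0, did not. The libraries did not measure mature miRNAs.

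The TALE cofactors, with which HOX proteins bind DNA, moved in both directions. Of 9 genes listed 7 were tested, and in nuclei 4 were higher and 2 lower in each of the AGO1/2 and AGO1/2/3 knockouts. Over all genes 67.6% and 58.6% were called in these comparisons (32.9% and 29.1% higher). MEIS2 fell by 0.96 and 1.06 on the log2 scale in the double and triple knockouts. MEIS3 rose by 0.94 and 1.06 and PBX3 by 1.08 and 0.62.

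Polycomb and Trithorax genes were called in both directions. Of 20 Polycomb genes, all tested, 9 were higher and 4 lower in AGO1/2 knockout nuclei, where 67.6% of all genes were called, and 9 and 5 in AGO1/2/3 knockout nuclei, where 58.6% were, with median log2 fold changes of 0.08 and 0.05. PHF19 (1.09), BMI1 (0.70) and CBX8 (0.69) were higher and PHC1 (-0.94) lower in the triple knockout. Of 10 Trithorax and KMT2 genes 5 were higher and 3 lower in AGO1/2 knockout nuclei, and 3 and 2 in AGO1/2/3 knockout nuclei. In the latter ASH2L (0.61), DPY30 (0.40) and MEN1 (0.39) were higher and KMT2B (-0.28) was lower. In cytoplasm 0 were higher and 3 lower in the AGO1/2 knockout, and 0 and 2 in the AGO1/2/3 knockout, where 49.2% and 38.7% of all genes were called. ASH2L (0.06), DPY30 (-0.05), MEN1 (-0.08) and KMT2B (-0.08) were not called in AGO1/2/3 knockout cytoplasm. Of the 6 CDX and ParaHox genes, which are regulators related to the HOX genes, 2 were tested: PDX1 fell by 0.86 on the log2 scale and CDX2 was at -0.02 (edgeR adjusted p = 0.00128 and 0.846) in the nuclear AGO1/2/3 comparison. CDX2 was called higher in nuclei of the AGO1 (0.324), AGO2 (0.444) and AGO1/2 (0.238) knockouts. It was called lower in cytoplasm of the AGO1/2 (-0.305) and AGO1/2/3 (-0.368) knockouts.

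In nuclear RNA few of the noncoding RNAs within the clusters were higher. Of 20 listed, 13 were tested, and 1 was higher and 4 lower in AGO1/2 knockout nuclei and 2 were higher and 2 lower in AGO1/2/3 knockout nuclei. Over all genes 67.6% and 58.6% were called there. In nuclei HOTAIRM1 (-0.69 and -0.57) and HOXA11-AS (-0.72 and -0.47) were lower and HOXA10-AS (0.47 and 0.47) higher in both, and HAGLR (0.87) was higher in the triple knockout. In cytoplasm 3 were higher and 2 lower in the AGO1/2 knockout, and 2 and 1 in the AGO1/2/3 knockout (49.2% and 38.7% of all genes called). There HAGLR (1.36 and 1.14) and HOTAIR (0.95 and 0.98) were higher in both. HOTAIRM1 (0.18 and -0.28) and HOXA11-AS (-0.45 and -0.29) were not called in cytoplasm of these knockouts. Most of the listed noncoding RNAs overlap HOX genes on the opposite strand, and although the kit was strand-specific, whether the quantification used the strand is not given in the sources used here.

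**Figure D5:**
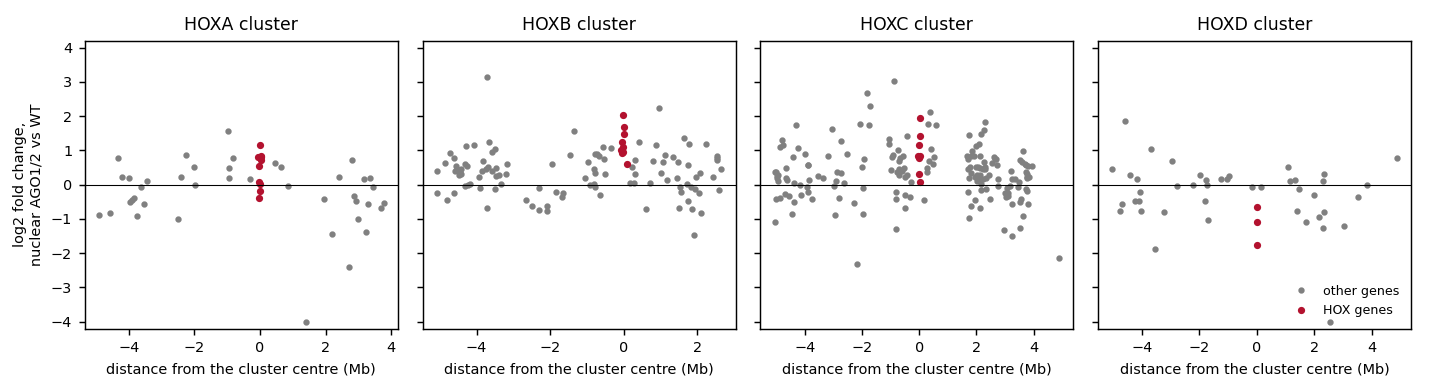
Nuclear log2 fold change of the AGO1/2 knockout against wild type for protein-coding genes within 5 Mb of each HOX cluster, by distance from the cluster centre in Mb, with HOX genes marked and values beyond 4 drawn at the edge. The HOXB genes lay above most of their surroundings, and the surroundings of HOXB and HOXC lay above 0 on balance.

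In nuclear RNA many genes around HOXB and HOXC were higher too. Among 108 tested protein-coding genes within 5 Mb of the HOXB cluster, HOX genes left out, 63 were higher and 15 lower in AGO1/2 knockout nuclei, where 32.9% of all genes were higher, with a median log2 fold change of 0.35 against 0.02 for the rest of chromosome 17. In the AGO1/2/3 knockout 59 were higher and 15 lower (medians 0.31 and 0.07). Around HOXC 91 of 171 were higher and 27 lower in the AGO1/2 knockout (medians 0.29 and -0.11), around HOXA 12 of 41 were higher and 15 lower (median -0.06) and around HOXD 11 of 43 and 16 (median -0.06). The HOXB genes themselves had a median of 1.11 in the same comparison. In AGO1/2 knockout cytoplasm, where 23.9% of all genes were higher, 42 of 114 genes around HOXB were higher and 24 lower (medians 0.17 and 0.06), and around HOXC 48 of 174 were higher and 37 lower (medians 0.02 and -0.03). Of 11 tested direct neighbours of the clusters, 6 were higher and 1 lower in AGO1/2 knockout nuclei. Over all genes 67.6% were called there (32.9% higher and 34.7% lower). The higher ones included SKAP1 beside HOXB (1.08), NFE2 beside HOXC (1.78) and CBX5 beside HOXC (0.49). SMUG1 beside HOXC was the 1 lower (-0.44). In cytoplasm of this knockout 3 neighbours were higher and 2 lower, where 49.2% of all genes were called. CBX5 (-0.07) and SMUG1 (0.12) were not called in cytoplasm.

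Cell type markers also differed from WT in the AGO1/2 and AGO1/2/3 knockouts. Of the 8 markers listed 6 were tested. In nuclei of each of these knockouts 3 were higher and 2 lower, where 67.6% and 58.6% of all genes were called. VIM, a mesenchymal intermediate filament, was at 1.11 to 1.66 nuclear TPM in WT, 19.8 to 22.3 in the AGO1/2 knockout and 15.2 to 15.3 in the AGO1/2/3 knockout. CDH1, the epithelial cadherin, was at 16.4 to 29.8 TPM in WT, 3.23 to 5.34 in the double knockout and 4.93 to 6.20 in the triple knockout, while KRT8 and KRT18 were higher in nuclei (log2 fold changes in CPM of 1.34 and 1.19, and 1.22 and 1.0). EPCAM fell by 0.56 and 0.38 on the log2 scale in nuclei and by 1.22 and 1.18 in cytoplasm. In AGO1/2 knockout cytoplasm KRT8 (0.05) and KRT18 (0.02) were not called. In the single knockouts VIM was at 1.93 to 2.37 nuclear TPM (AGO1) and 0.661 to 1.05 (AGO2). In AGO2 knockout nuclei VIM fell by 0.38 on the log2 scale, EPCAM rose by 0.68 and CDH1 (0.04) was not called. In the AGO1 knockout CDH1 fell by 1.16 on the log2 scale in nuclei, to 7.59 to 8.09 TPM, and by 1.28 in cytoplasm, and KRT20, an intestinal keratin, fell by 1.36 in nuclei and 0.93 in cytoplasm. The part of these changes in the HOX results was not tested, and in bulk RNA a change in the share of cells and a change of RNA per cell cannot be told apart.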

How the data were processed

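Per the labels and the study's methods, the authors made nuclear and cytoplasmic RNA libraries with a strand-specific kit after removal of ribosomal RNA and quantified transcripts with Salmon. The submitters' processing notes name STAR 2.5.3a, Salmon 0.11.0, hg38 and DESeq2. The deposited tables give an estimated count and a TPM (normalized for length and library total by the authors' run of Salmon) per transcript. Here transcripts were summed per gene through GENCODE 44 identifiers. Transcripts without a match held 2.23 to 4.01% of the reads and were left out.

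Estimated counts were rounded and tested with edgeR 4.0.16 (quasi-likelihood, TMM, filterByExpr with a minimum count of 10) in R 4.3.3, with the 15 libraries of each fraction fitted together, and with all 30 for nuclear against cytoplasmic RNA and the interaction, at an adjusted p of 0.05 (Benjamini-Hochberg over all genes). The script was tested on simulated data. Alternatives were RLE factors, DESeq2 1.42.0, limma 3.58.1 on log2(TPM + 1) and log2(TPM + 0.1), no filter, a mean count of at least 50, only the 2 groups compared, protein-coding transcripts only, each library left out, and the passage as a block.

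Members given in every library were called with an absolute log2 fold change of at least 1 in a comparison with WT and reached 1 TPM in a group, at most 12 by size. For other lists the 4 genes with the smallest adjusted p in the nuclear AGO1/2/3 comparison were named, and HOXB2, HOXB13, HOXA4, HOXA5, HOXA9, HOXC4, HOXC11, HOXD3, HOXD4 and CDH1 were added after their values were seen. The members and lists were chosen with earlier results of these data known. Nuclear and cytoplasmic libraries of a genotype share passage numbers in the labels, and the correlation of same-passage deviations was 0.148 to 0.402 in WT and -0.027 to 0.212 in the knockouts. Other samples of the series, made with eCLIP, were not used here. A few genes that the lists hold are counted in the totals, and their own values are not reported here.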

Additional observations from a re-analysis of the deposited data

Results flagged for a closer look

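For 10 HOX genes in the AGO1/2 knockout and 5 in the AGO1/2/3 knockout the difference from wild type was not the same in the 2 fractions, by the interaction term of the edgeR fit, which called 36.5 and 22.7% of all genes. Of the 30 tested members it called 33.3 and 16.7%. No member was called the same way under every scaling in the AGO1/2 knockout, and HOXA4 was the 1 such member in the AGO1/2/3 knockout. Values are log2 fold changes in nuclear minus those in cytoplasmic RNA, so that a positive value is a higher difference in nuclei. In the AGO1/2 knockout the values above 0 were 0.732 for HOXA4 (adjusted p = 0.0457), 0.65 for HOXA7 (0.0105), 0.605 for HOXA11 (0.00413), 0.559 for HOXB7 (0.00572) and 0.412 for HOXB13 (0.0474). Those below 0 were -1.303 for HOXC11 (0.0494), -1.231 for HOXC8 (2.3e-04), -0.437 for HOXB5 (0.0277), -0.411 for HOXB3 (0.012) and -0.351 for HOXC6 (0.0315). On the log2(TPM + 1) scale HOXB3 (0.06), HOXB5 (0.20) and HOXC6 (0.24) changed sign, and with passage as a block HOXC11 was no longer called.

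In the AGO1/2/3 knockout the values were 1.112 for HOXA4 (adjusted p = 0.00633), 0.59 for HOXA7 (0.0308), 0.493 for HOXA11 (0.0281), -0.422 for HOXC6 (0.0174) and -0.886 for HOXC8 (0.00903). HOXA4, HOXA7, HOXA11, HOXC6 and HOXC8 were called in the same direction in both knockouts, which were compared with the same wild-type libraries. HOXC11 and HOXC8 rest on 4 to 7 and 15 to 17 estimated reads in the wild-type cytoplasmic libraries.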

How the results depend on the processing

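DESeq2, RLE factors, no low-count filter and protein-coding transcripts only kept all 17 counts of members called within 1.5 times the values given. These counts pool both directions, and the directions of the interaction moved. With no filter 7 members were above and 1 below 0 in the AGO1/2 knockout, and 5 and 0 in the AGO1/2/3 knockout. Over all 36717 genes these were 4752 and 2379, and 3717 and 1207. With protein-coding transcripts only the member counts were 0 and 7, and 1 and 5, where 2283 and 2355, and 1563 and 1488, of 13571 genes were. On log2(TPM + 1) the called members were 5 (nuclear AGO1), 6 (nuclear AGO2), 5 (cytoplasmic AGO1), and for the interaction 1 (AGO2) and 16 (AGO1/2), and on log2(TPM + 0.1) they were 5 (nuclear AGO1) and 6 (nuclear AGO2). The interaction on log2(TPM + 1) called 2582 (AGO2) and 11017 (AGO1/2) of all 20104 genes. With only the 2 groups in the fit, which leaves fewer samples, cytoplasmic AGO1 and AGO2 had 3 each. With passage as a replicate block the interaction called 1 (AGO1), 6 (AGO2) and 10 (AGO1/2/3), and no other count moved by over 1.5 times. Over all 20104 genes the block raised the calls too, from 133 to 1261 (AGO1), 1158 to 3623 (AGO2) and 4567 to 7011 (AGO1/2/3). No paired analysis was possible for knockouts against wild type because they share no passage numbers.

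Leaving out 1 library at a time gave 5 to 10 for cytoplasmic AGO1 (5 without AGO1 passage 8), and for the interaction 0 to 1 (AGO1; 1 without cytoplasmic WT 29), 0 to 2 (AGO2; 2 without cytoplasmic WT 29, 1 without nuclear WT 27), 6 to 10 (AGO1/2; 6 without cytoplasmic AGO1/2 passage 10, nuclear AGO1/2 passage 9 or nuclear WT 28) and 3 to 7 (AGO1/2/3; 3 without cytoplasmic or nuclear AGO1/2/3 passage 14 or cytoplasmic WT 28).

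Among differences of named members from wild type, signs turned in those listed here, of which cytoplasmic HOXB3 in AGO1 had been called. The called AGO1/2 interactions of HOXB3, HOXB5 and HOXC6 also changed sign on log2(TPM + 1). On log2(TPM + 1) and log2(TPM + 0.1), nuclear AGO1 gave -0.103 and -0.144 (HOXC6), -0.077 and -0.132 (HOXC8) and -0.1 and -0.214 (HOXC10), nuclear AGO1/2/3 gave -0.075 and -0.122 (HOXC8), cytoplasmic AGO1 gave -0.001 and -0.041 (HOXB3), and cytoplasmic AGO2 gave -0.031 and -0.031 (HOXB9), -0.049 and -0.067 (HOXB5), -0.043 and -0.054 (HOXB3) and -0.004 and -0.018 (HOXC8). Nuclear HOXC8 was -0.221 (AGO1/2) and -0.14 (AGO1/2/3) with protein-coding transcripts, and -0.033 (AGO1/2) at a mean count of at least 50. With 1 library left out the ranges were -0.011 to 0.179 (HOXC8), -0.203 to 0.205 (HOXD8) and -0.043 to 0.229 (HOXC10) for nuclear AGO1, -0.245 to 0.06 (HOXC8; 0.009 without WT 28) and -0.305 to 0.103 (HOXD8) for nuclear AGO2, -0.058 to 0.468 (HOXB9; -0.044 without AGO1 passage 8, -0.051 without WT 27) and -0.42 to 0.154 (HOXD8) for cytoplasmic AGO1, and -0.017 to 0.508 (HOXB9; -0.01 without WT 27) and -0.508 to 0.066 (HOXD8) for cytoplasmic AGO2. The cause was not tested. Depth limits HOXC8, HOXC11, HOXD3 and HOXD4, and the 9 members that passed no filter could not be compared.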
